A study of Mus musculus with 30 samples.

Results

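Dct, Gpnmb and Mitf, 3 genes known from pigment cells, were followed by name through 28 tumours of a mouse glioblastoma model and 2 samples of normal cortex, among 24421 genes listed. Dct was chosen on its level in A289I and A289V tumours against mCherry tumours, and Gpnmb on its level in mCherry tumours against cortex. Those differences, and any other of these 2 genes that uses the mCherry libraries, are therefore given as descriptions, with no test. All samples were taken at postnatal day 70. The tumours carried the epidermal growth factor receptor EGFR in 1 of 6 mutant forms, each named for the residue exchanged, A289I (5 libraries), A289V (4), R108G (3), R108K (4), R222C (3) or T263P (3), the EGFR wild-type form (3), or mCherry, a fluorescent protein, with no added receptor (3). The 2 cortex libraries carried the label WT. The strain, the way the tumours were started, any alteration that the mCherry tumours shared with the others and the species of the added receptor were not given in the sources used here. Bulk tumours came from several mice per variant, but nothing in the labels ties a library to a mouse, so p-values measure the spread between these samples.

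Polyadenylated RNA of whole tissue had been sequenced, and levels are given as RPM, the deposited normalised count divided by 1 constant for all libraries. Libraries held 2784129 to 24475215 reads, so that 1 read was worth 0.0387 to 0.383 RPM. The labels' library numbers fell in 3 ranges, below 20 (7 tumours), 20 to 37 (12 tumours) and above 37 (9 tumours), and Rn45s, a ribosomal RNA precursor, took 2.47% to 4.57% of the reads in tumours of the middle range and 0.117% to 1.32% in the others. The A289I and R108G libraries were all above 37. The middle range held every library of R222C, T263P and cortex. The tissue labels were matched by markers: the synaptic gene Snap25 ranged from 4.34 to 2627 RPM in tumours and from 3539 to 3887 RPM in cortex, and Top2a of dividing cells from 86.8 to 539 RPM in tumours and from 1.204 to 1.70 RPM in cortex. A289V libraries 1 and 2 stood apart by their neuron genes. Of 12 listed neuron genes, 11 were highest of all tumours in library 2 and the other in library 1. Of all tested genes, 15.4% were highest in A289V library 2 and 3.60% in A289V library 1. EGFR wild-type libraries 1 and 2 and mCherry library 2 stood apart with Met above 1000 RPM.

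Melanocytes, the pigment cells of skin and eye, make melanin from tyrosine inside melanosomes, organelles related to lysosomes. Tyr (tyrosinase) carries out the first step, and Dct (dopachrome tautomerase) and Tyrp1 act after it. Pmel builds the fibrils on which melanin is laid down. Gpnmb is a membrane glycoprotein related to Pmel that is found in melanosomes and also in macrophages and microglia loaded with lipid or debris. Mitf is the transcription factor on which the melanocyte lineage depends. It belongs to the MiT/TFE family with Tfeb, Tfe3 and Tfec, whose members also switch on genes of lysosomes. In melanocytes Mitf works with Sox10, which in the brain marks the oligodendrocyte lineage, the cells that make myelin.

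Dct lies on the minus strand of chromosome 14 (mm10, 118012790 to 118052244), Gpnmb on the plus strand of chromosome 6 (49036546 to 49070929) and Mitf on the plus strand of chromosome 6 (97807052 to 98021349), in the GENCODE M21 annotation. The promoters are shown because Mitf is known to bind the M-box, whose core is searched for here as TCATGTG, and because Dct shares this core with enzymes that had few reads in the tumours. RefSeq windows of 250 bases before the start (GRCm38.p6, 5′ to 3′ on the strand of the gene) were searched on both strands for TCATGTG, for CACGTG and CATGTG, the E-boxes that MiT/TFE factors are known to bind, and for ACAAAG, a SOX motif. CATGTG lies inside the M-box core. Capitals mark the M-box cores and SOX motifs.
Dct, chr14:118052247-118052496, minus strand: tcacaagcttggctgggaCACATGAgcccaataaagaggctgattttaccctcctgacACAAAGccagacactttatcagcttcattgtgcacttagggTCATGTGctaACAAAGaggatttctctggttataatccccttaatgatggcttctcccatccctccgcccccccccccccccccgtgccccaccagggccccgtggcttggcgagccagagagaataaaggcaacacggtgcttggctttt
Tyr, chr7:87493513-87493762, minus strand: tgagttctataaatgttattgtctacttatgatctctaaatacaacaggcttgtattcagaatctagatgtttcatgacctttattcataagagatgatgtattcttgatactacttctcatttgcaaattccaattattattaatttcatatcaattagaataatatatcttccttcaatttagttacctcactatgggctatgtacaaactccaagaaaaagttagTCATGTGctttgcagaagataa
Tyrp1, chr4:80833963-80834212, plus strand: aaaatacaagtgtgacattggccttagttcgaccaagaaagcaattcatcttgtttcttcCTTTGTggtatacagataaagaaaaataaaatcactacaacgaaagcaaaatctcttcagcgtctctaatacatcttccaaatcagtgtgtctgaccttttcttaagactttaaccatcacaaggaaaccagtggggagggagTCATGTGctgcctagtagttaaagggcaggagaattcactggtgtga
Tspan10, chr11:120442381-120442630, plus strand: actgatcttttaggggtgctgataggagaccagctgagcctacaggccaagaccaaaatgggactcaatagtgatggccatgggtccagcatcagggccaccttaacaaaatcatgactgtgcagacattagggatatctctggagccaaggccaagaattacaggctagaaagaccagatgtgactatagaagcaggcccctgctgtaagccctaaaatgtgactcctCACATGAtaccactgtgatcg
Gpnmb, chr6:49036268-49036517, plus strand: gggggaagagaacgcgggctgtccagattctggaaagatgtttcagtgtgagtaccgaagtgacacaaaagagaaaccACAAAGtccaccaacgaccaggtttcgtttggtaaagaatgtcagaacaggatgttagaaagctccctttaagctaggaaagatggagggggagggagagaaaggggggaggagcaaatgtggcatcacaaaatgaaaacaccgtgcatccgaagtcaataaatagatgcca
The Dct window held 2 M-box cores, starting 232 and 151 bases before the start, and 2 SOX motifs. Tyr, Tyrp1 and the pigment cell tetraspanin Tspan10 held 1 M-box core each. The Gpnmb window held no M-box core and no CACGTG, and 1 SOX motif. None of the motifs was found in the 3 windows of Mitf. Of 32817 windows of the same length, 3.25% held the M-box core, 6.02% CACGTG, 12.3% CATGTG and 16.5% the SOX motif. A match is a run of letters and not a measured binding site.

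Dct was a low transcript in every group. It was present at 6.33, 39.7, 63.5, 10.6 and 16.9 RPM in the A289I tumours and at 10.7, 9.04, 92.7 and 1.76 RPM in the A289V tumours. R108G tumours had 13.4, 9.26 and 6.22 RPM, R108K tumours 3.07, 6.60, 1.96 and 9.81 RPM, R222C tumours 2.41, 2.68 and 2.68 RPM, and T263P tumours 9.12, 7.18 and 2.20 RPM. EGFR wild-type tumours had 0.120, 2.64 and 8.11 RPM, mCherry tumours 1.22, 0.329 and 0.275 RPM, and cortex 1.204 and 3.25 RPM. The 0.120 RPM of EGFR wild-type library 1 was 1 read. Ordered by mean log2(RPM + 1), the groups ran A289I, A289V, R108G, T263P, R108K, R222C, EGFR wild-type, cortex and mCherry, and each neighbouring pair overlapped. All mCherry values lay below every value of the 6 variants, and EGFR wild-type library 1 lay below mCherry.

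The difference from the mCherry tumours on log2(RPM + 1) was 3.75 for A289I, 3.09 for A289V, 2.72 for R108G, 2.05 for T263P, 1.85 for R108K, 1.21 for R222C and 1.10 for EGFR wild-type tumours. These values share the 3 mCherry libraries and partly chose the gene, so they carry no test. At levels this low the size depended on the scale: the A289I difference was 5.05 with a pseudocount of 0.1 RPM and 5.55 in DESeq2, and the A289V difference 5.62 in DESeq2. mCherry tumours differed from cortex by -0.98 ± 1.01 on log2(RPM + 1) (SE, n = 3 and 2), which draws on the same low mCherry values and is a description too. In whole tissue, fewer cells of a type and less RNA per cell cannot be told apart.

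**Figure D1:**
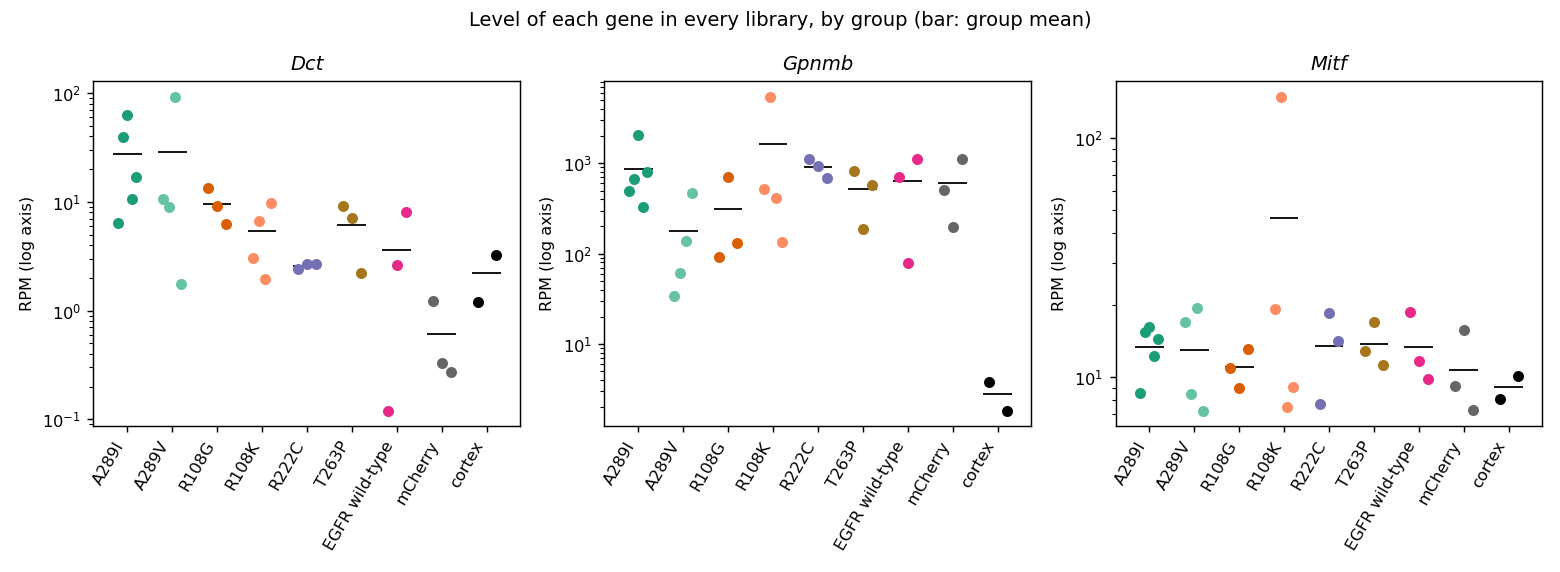
RPM of Dct, Gpnmb and Mitf on log axes in all 30 libraries (points) with the group means (bars), receptor forms left of mCherry and cortex. The 3 mCherry tumours lie at 0.275 to 1.22 RPM of Dct, the cortex at 1.84 and 3.78 RPM of Gpnmb, and R108K library 2 stands at 149 RPM of Mitf and 5448 RPM of Gpnmb.

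Whether Dct came with the rest of the pigment program was read from 13 genes of melanocytes and pigmented epithelium. The other melanin enzymes were nearly silent. Tyr had 8 reads in all 28 tumours together, at most 1 in a library, with no read in 20 of them. Tyrp1 had 55 reads, with none in 13 tumours, and Slc45a2, a melanosome transporter, 32 reads. Neither enzyme had a read in the 2 cortex libraries, where a count of 0 allows up to 0.516 and 0.424 RPM. Over the same tumours Dct had 4584 reads. Tumour medians per kilobase of exon were 1.10 RPM for Dct, 0.0373 RPM for Tyrp1 and 0 for Tyr.

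Of the 13 genes, 5 passed the filter on low values (Pmel, Mlana, Oca2, Slc24a5 and Rab38), and none of the 5 passed the test against mCherry for A289I or A289V tumours (background 0.607% and 4.91% of tested genes). Mlana, a melanosome protein, reached 2.57 RPM, Slc24a5, a cation exchanger of pigment cells, 4.28 RPM, Rab38, a transport GTPase, 2.25 RPM and Oca2, a melanosome channel, 8.11 RPM at most. Trpm1, a cation channel, reached 2.795 RPM, the pigment receptor Gpr143 2.17 RPM and the melanocortin receptor Mc1r 0.621 RPM, all in R108K library 2. Pax3, a regulator upstream of Mitf, had no read in 18 tumours and reached 5.39 RPM in EGFR wild-type library 2.

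Pmel varied together with Dct. It stood at 1.98, 16.2, 46.9, 13.7 and 7.57 RPM in A289I tumours, 13.7, 10.4, 42.2 and 3.34 RPM in A289V tumours, 17.2, 4.58 and 5.28 RPM in R108G tumours, and 0.528 to 9.97 RPM in the other receptor tumours. mCherry tumours had 1.70, 3.46 and 0.825 RPM and cortex 1.204 and 0.9902 RPM. A289I library 3 and A289V library 3 were the highest tumours in both genes. Over the 28 tumours, log2(RPM + 1) of Pmel and Dct correlated with r = 0.785 and rho = 0.759 (permutation p = 1e-05 and 2e-05, 13 gene pairs, adjusted p = 0.00013 and 0.00026; 1e-05 is the smallest p that 100000 resamples can give). Within groups, as deviations from the group means, r was 0.674 (permutation within groups, p = 0.00208, adjusted p = 0.027), and without the 2 tumours farthest from the Pmel median it was 0.638. Within the ranges of library numbers r was 0.364, 0.885 and 0.895. The ends of Pmel overlap Cdk2 and Dgka on the other strand, and whether counting used strand was not given in the sources used here. Cdk2 had r = -0.353 and Dgka r = 0.292 with Dct.

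**Figure D2:**
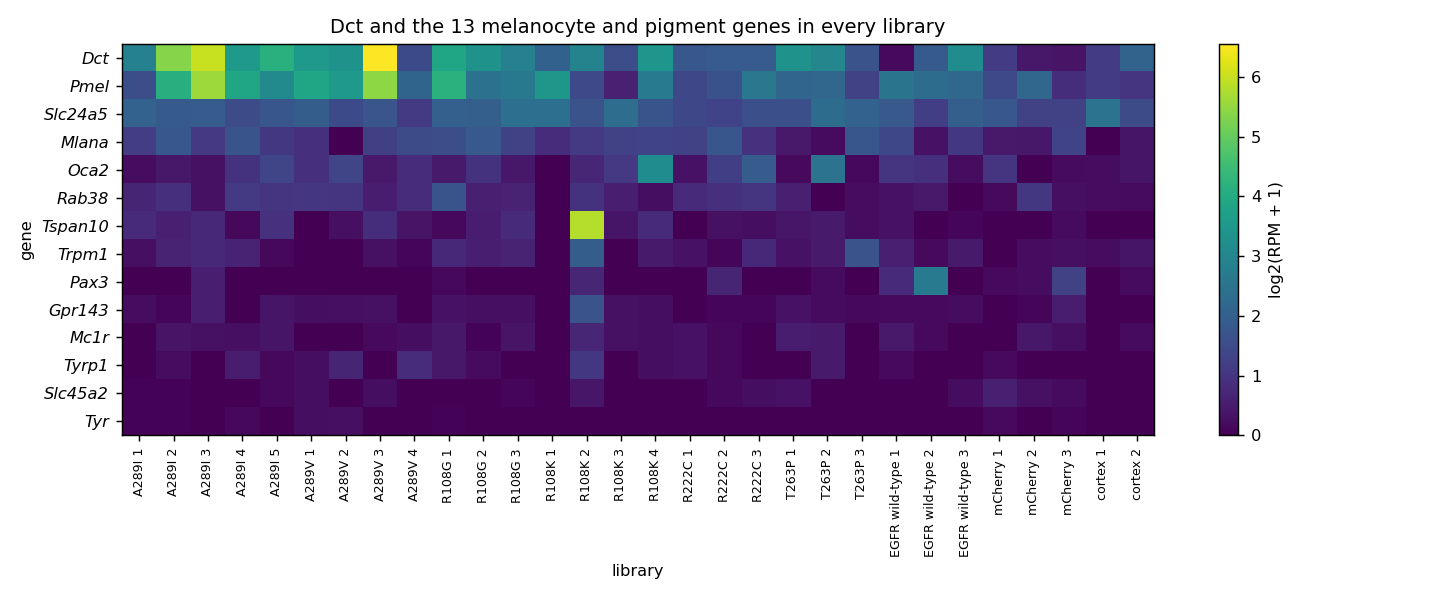
log2(RPM + 1) of Dct and the 13 melanocyte and pigment genes (rows) in every library (columns, receptor forms left of mCherry and cortex). Dct and Pmel are both brightest in A289I library 3 and A289V library 3, Tyr and Tyrp1 stay dark, and Tspan10 is bright in R108K library 2 at 55.6 RPM.

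The glial programs were read from 15 genes of myelin and 17 of oligodendrocyte precursor cells (OPC). Over 28 tumours Dct correlated with the mean of the myelin genes at r = 0.719 and rho = 0.782 (permutation p = 4e-05 and 2e-05, 42 correlations of the 3 genes with 14 lists, adjusted p = 0.00168 and 0.00084). With the OPC genes r was 0.567 and rho 0.564 (adjusted p = 0.0192 and 0.0297), and with the pigment genes r was 0.530 and rho 0.681 (adjusted p = 0.0273 and 0.00168). Without Pmel, r with the pigment list was 0.168 (adjusted p = 0.585). R108K library 2 stood apart in the mean log2(RPM + 1) of these other pigment genes, at 1.39 against 0.708 in the next tumour. The part of that library in the value of 0.168 was not tested. The OPC call was lost without mCherry library 2 (0.507, adjusted p = 0.0543), and the pigment call without any 1 of the 3 mCherry libraries (0.498 to 0.508). Astrocyte genes (0.317), neuron genes (0.235) and pan-myeloid genes (-0.0826) did not pass. Without the 2 tumours farthest from the median of the list, r was 0.718 for myelin, 0.604 for OPC and 0.690 for pigment genes.

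These pooled values, and the pooled values of Dct with Pmel and with other single genes, partly reuse the difference from mCherry that chose Dct. So do the values in the ranges below 20 and above 37, which hold the mCherry tumours. Their p-values are therefore not independent of the choice of the gene. The deviations within groups do not reuse that difference. Within groups r was 0.334 for myelin, 0.407 for OPC and 0.374 for pigment genes, and none passed (adjusted p = 0.361, 0.448 and 0.331). Within the ranges of library numbers below 20, 20 to 37 and above 37, r was 0.773, 0.630 and 0.676 for myelin genes (permutation p = 0.0339, 0.0208 and 0.0459, exact below 20 and above 37, adjusted p = 0.458, 0.256 and 0.310). For OPC genes it was 0.577, 0.138 and 0.817 (p = 0.172, 0.619 and 0.00782, by the same permutation tests, adjusted p = 0.589, 0.765 and 0.135).

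**Figure D3:**
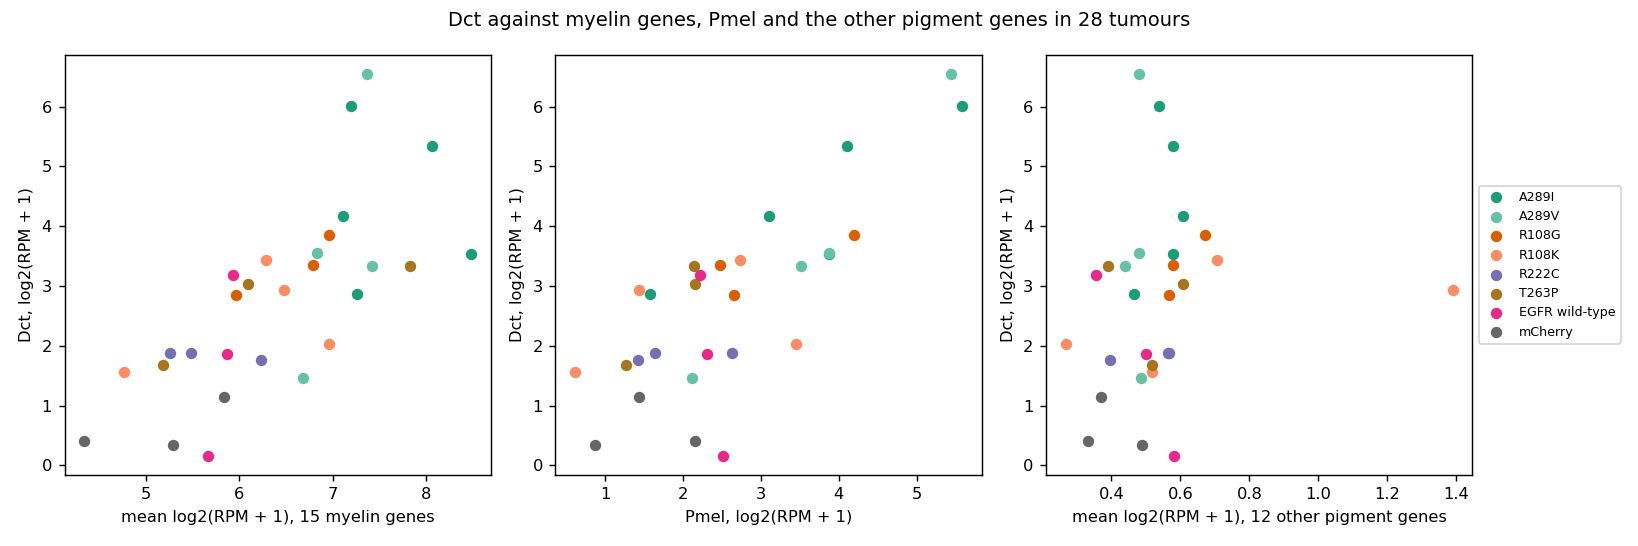
Dct, as log2(RPM + 1), against the mean of 15 myelin genes, against Pmel and against the mean of the 12 other pigment genes, 1 point per tumour and coloured by group. Dct climbs with the myelin genes (r = 0.719) and with Pmel (r = 0.785), and shows little slope against the other pigment genes (r = 0.168), where R108K library 2 lies far right.

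Gene by gene, 12 of 15 myelin genes and 5 of 17 OPC genes had r above 0.5 with Dct, against 3.44% of all genes compared, and the same counts held without R108K library 2, against 3.82%. The highest among them, named for their r, were Neu4, a sialidase (0.749), Mag, a myelin adhesion protein (0.744), Bcan, an extracellular proteoglycan (0.729), Tnr (0.718), Myrf, the transcription factor that starts myelin genes (0.708), and Gpr17, a receptor of differentiating precursors (0.706). The lineage factors Sox10 (0.156) and Olig2 (0.0547) and the receptor Pdgfra (0.271) were far lower. The OPC genes Vcan (-0.203), Ptprz1 (-0.306) and Pcdh15 (-0.346) ran the other way. Of the lysosome genes 3 of 15 also had r above 0.5 with Dct, Npc1 (0.764), Cln3 (0.558) and Mcoln1 (0.533), and of the astrocyte genes 1 of 13. Within groups the highest r of a myelin gene was 0.492 (Cnp), while Bcan had 0.580, Npc1 0.550 and Cln3 0.507. Of the myelin genes, 7 of 15 rose in A289I tumours against mCherry tumours, where 0.525% of all tested genes rose, and 4 of 15 rose in A289V tumours, where 3.23% did. Mag rose by 4.23 ± 0.76 in A289I and by 3.22 ± 0.80 in A289V tumours, Myrf by 3.18 ± 0.60 in A289I, and Mbp, the basic protein of myelin, by 3.01 ± 0.68 in A289I tumours (log2 ± SE; limma adjusted p = 0.0225, 0.0358, 0.0233 and 0.0397). Of the OPC genes, 3 of 17 rose in A289I tumours, Neu4 (4.31), Gpr17 (2.56) and Tnr (2.13), and 2 of 17 in A289V tumours, Neu4 (3.87) and Tnr (1.78). Without mCherry library 2 or 3 the OPC counts were 1 and 1, with a term for the 3 ranges 1 and 0, with edgeR 1 and 2 and with DESeq2 6 and 3. The median of the myelin genes was 2.27 in A289I and 1.93 in A289V tumours, against 0.00331 and 0.00136 over all genes. No myelin gene passed in either comparison with edgeR, with a term for the 3 ranges, or without mCherry library 2 or 3, and DESeq2 called 10 and 8 of 15. Without mCherry library 1 the counts were 4 in A289I and 7 in A289V tumours, and without A289V libraries 1 and 2 they were 3 and 0. The mean log2(RPM + 1) of the 15 myelin genes was 7.11 to 8.49 in A289I tumours, 6.68 to 7.43 in A289V tumours and 4.34 to 5.83 in mCherry tumours, against 8.14 and 8.16 in cortex. The cortex values lay inside the A289I range of myelin genes, while Dct in cortex, at 1.204 and 3.25 RPM, was below every A289I tumour.

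Among the 12527 tested genes whose tumour mean reached 5 RPM, Sirt2, a deacetylase abundant in oligodendrocytes, was most like Dct over the 28 tumours (r = 0.881; 0.761 within groups). Next came Fam102a (0.815), Elfn2 (0.795), the adhesion molecule Nlgn2 (0.791), the cell adhesion protein Nfasc (0.786), Pmel (0.785), the lipase Pnpla3 (0.777), the glycolipid carrier Gltp (0.776), Arhgap35 (0.775) and the calcium channel Itpr2 (0.767). Within groups these stayed between 0.544 (Nfasc) and 0.781 (Pnpla3). Among the most opposed were Tdp2 (-0.758), Fbxo30 (-0.757), Msl3 (-0.730) and Thoc2 (-0.727). These likenesses are descriptions over 28 tumours that share groups and differ in depth. Dct and Egfr had r = 0.414 (permutation p = 0.0285, adjusted p = 0.185; 0.208 within groups). Without the 2 tumours farthest from the Egfr median r was 0.618. Egfr was at 22.1 to 35.4 RPM in the mCherry tumours, which had no added receptor. Both pooled values therefore partly reuse the difference from mCherry that chose Dct, and the p-value is not independent of that choice.

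**Figure D4:**
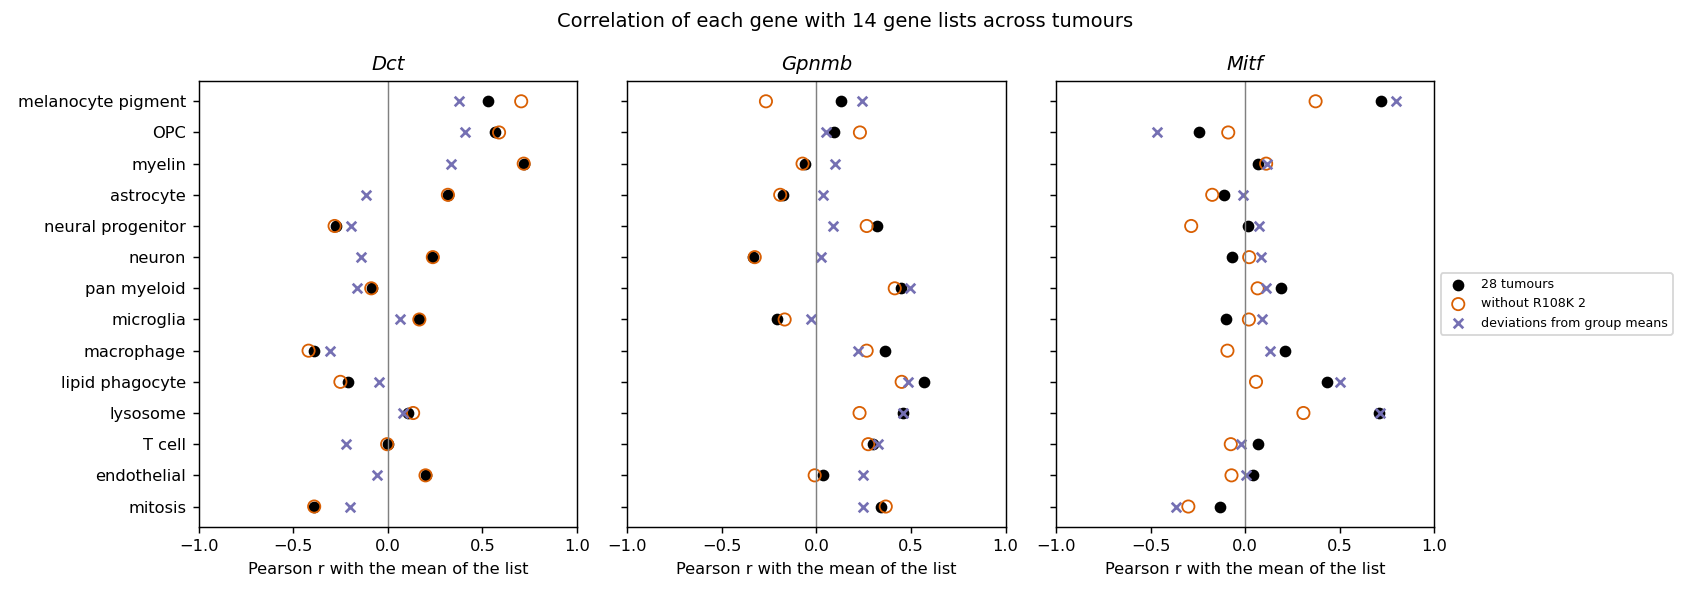
Pearson r of Dct, Gpnmb and Mitf with the means of 14 gene lists, over 28 tumours (filled), without R108K library 2 (open) and as deviations from group means (crosses). Dct is farthest right for myelin (0.719), Gpnmb for lipid phagocyte genes (0.569), and Mitf for pigment (0.720) and lysosome genes (0.708), both of which shift left without R108K library 2 (0.373 and 0.308).

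Gpnmb was abundant in every tumour and nearly absent from cortex. It reached 499, 671, 2067, 328 and 791 RPM in A289I tumours, 33.8, 61.5, 137 and 472 RPM in A289V tumours, 91.1, 711 and 130.5 RPM in R108G tumours and 516, 5448, 408 and 135 RPM in R108K tumours. R222C tumours had 1126, 925 and 694 RPM, T263P tumours 818, 188 and 570 RPM, EGFR wild-type tumours 699, 79.2 and 1125 RPM, and mCherry tumours 505, 199 and 1127 RPM, against 3.78 and 1.84 RPM in cortex. Every tumour lay above both cortex libraries, and every pair of neighbouring tumour groups overlapped. The difference between mCherry tumours and cortex was 7.04 on log2(RPM + 1), the value that chose the gene. Per kilobase of exon the tumour median was 78.3 RPM for Gpnmb, against 2.02 RPM for Mitf and 1.10 RPM for Dct.

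Against mCherry tumours, whose values entered the choice of the gene, the mean of the 7 receptor forms differed by -0.28 ± 0.84 and the A289V tumours, the lowest, by -2.15 ± 1.04 on log2(RPM + 1), as descriptions. Among the receptor forms A289I exceeded A289V by 2.70 ± 0.92 and did not pass (limma adjusted p = 0.133), nor did A289V against EGFR wild-type tumours (adjusted p = 0.236). With library weights both passed (adjusted p = 0.0041 and 0.0338). For A289I against A289V the adjusted p was 0.226 in edgeR and 0.143 in DESeq2. Over 10 alternative fits with limma, edgeR or DESeq2 this difference ran from 0.975 to 3.35, and its adjusted p from 0.0041 to 0.999. The A289I and A289V libraries share no range of library numbers, so variant and range cannot be told apart in this comparison. The A289V tumours also had the highest neuron genes, with a mean log2(RPM + 1) of 7.27 to 9.22, against 5.38 to 7.28 in mCherry tumours, and the part of this in their Gpnmb was not tested.

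Most myeloid genes were higher in mCherry tumours than in cortex, a comparison in which 38.3% of all tested genes were called and 17.8% rose. Of 14 pan-myeloid genes 12 rose, among them Ctss, a lysosomal protease of phagocytes (2.58 ± 0.54), and the complement genes C1qa (2.43 ± 0.55), C1qb (2.48 ± 0.55) and C1qc (2.70 ± 0.56; limma adjusted p = 0.000789, 0.00137, 0.00111 and 0.000688). Of 13 genes of lipid-loaded phagocytes 9 rose, with the cystatin Cst7 at 5.58 ± 0.61, the glucan receptor Clec7a at 5.05 ± 0.60 and the lectin Lgals3 at 4.98 ± 0.92 (adjusted p = 5.89e-07, 1.56e-06 and 0.00024), while the abundant lipid carrier Apoe was at -0.31 (adjusted p = 0.561). Of 12 macrophage genes 5 rose, and of 10 homeostatic microglia genes 1 rose, the transcription factor Sall1. Of 16 lysosome genes 5 rose and 2 fell, and of the 15 myelin genes 10 fell, where 20.5% of all tested genes fell. With a term for the 3 ranges of library numbers, which put mCherry and cortex libraries in different ranges, 7 of 14 pan-myeloid, 5 of 13 lipid phagocyte and 3 of 16 lysosome genes rose, of 12 macrophage genes 1 rose and 1 fell, and 24.4% of all genes were called. Without mCherry library 3 also 1 macrophage gene rose and 1 fell. No pan-myeloid gene passed for A289I or A289V tumours against mCherry.

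Over the 28 tumours r of Gpnmb was 0.569 with the lipid phagocyte genes (rho 0.461; permutation p = 0.00194, adjusted p = 0.0192 for r and 0.103 for rho), 0.458 with lysosome genes and 0.445 with pan-myeloid genes (adjusted p = 0.0905 for both), 0.363 with macrophage genes (adjusted p = 0.2) and -0.208 with microglia genes (adjusted p = 0.534). Without R108K library 2 the lipid phagocyte value was 0.450 (adjusted p = 0.193), the lysosome value 0.228 and the pan-myeloid value 0.414. Without the 2 tumours farthest from the median, R108G library 3 and T263P library 1, the pan-myeloid value was 0.564 (permutation p = 0.00251). Within groups r was 0.497 with pan-myeloid, 0.482 with lipid phagocyte and 0.457 with lysosome genes. None of these passed (permutation within groups, adjusted p = 0.291, 0.361 and 0.443). Macrophage and microglia genes had 0.218 and -0.0297 within groups. The pan-myeloid value was 0.715 and 0.551 in the ranges below 20 and 20 to 37, and -0.0663 above 37. Cd68, a lysosomal glycoprotein of macrophages, had the highest r of the pan-myeloid genes (0.542; 0.433 without R108K library 2), and it was the only 1 of 14 above 0.5, against 1.24% of all genes. Without R108K library 2 none of the 14 was above 0.5, against 1.85%. The median r over the 14 genes was 0.420, against 0.0074 over all genes. Other lists had medians not far below, 0.375 over 13 lipid phagocyte genes, 0.374 over 3 T-cell genes and 0.339 over 10 mitosis genes.

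The tumour highest in most pan-myeloid genes was not the tumour highest in Gpnmb. R108G library 3 was highest in 57.1% of the pan-myeloid genes, against 5.18% of all tested genes, and had 130.5 RPM of Gpnmb. By the mean log2(RPM + 1) of the 14 genes, T263P library 1 (7.76) and R108G library 3 (7.75) led, before EGFR wild-type library 1 (7.67) and A289I library 2 (7.53). T263P library 1 had 818 RPM of Gpnmb, EGFR wild-type library 1 699 RPM and A289I library 2 671 RPM, against a tumour median of 510 RPM. R108K library 2, with 5448 RPM, was highest in 0 of 14 pan-myeloid genes, in 4 of 13 lipid phagocyte genes (Lgals3, Fabp5, Cd63 and Ctsl) and in 9 of 16 lysosome genes, where 4.13% of all tested genes were highest in that library.

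**Figure D5:**
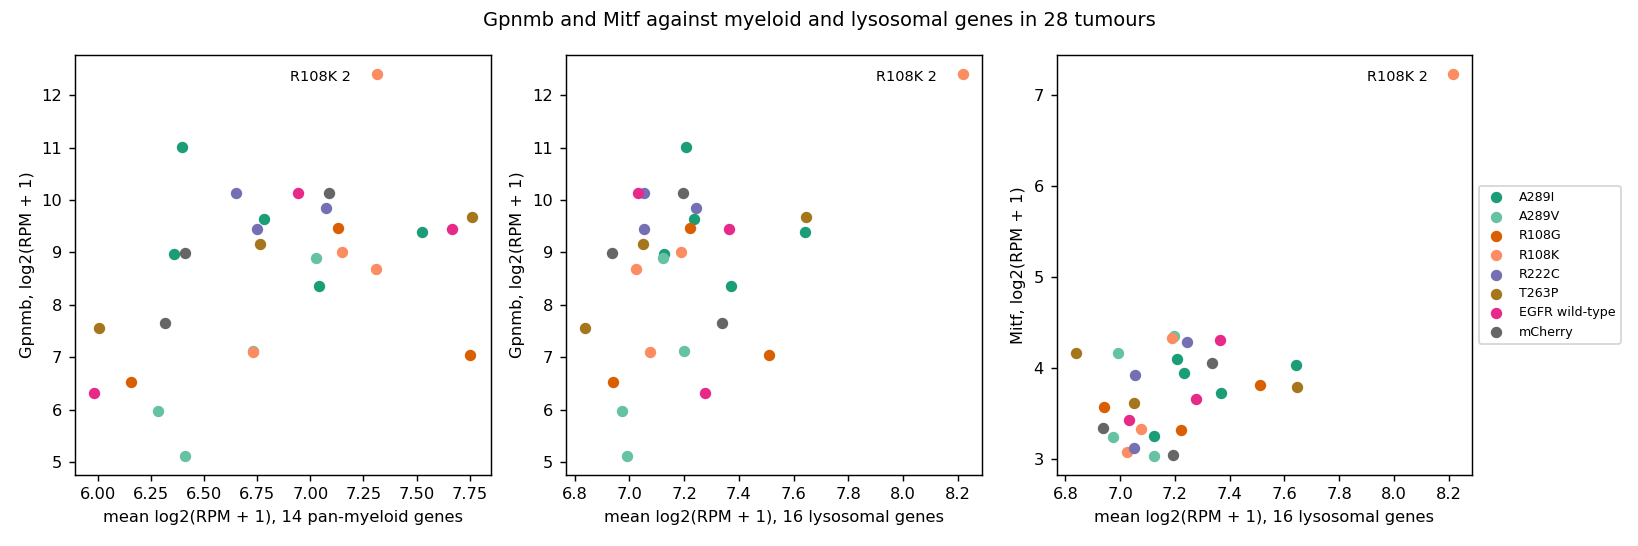
Gpnmb against the mean of 14 pan-myeloid genes and of 16 lysosome genes, and Mitf against the lysosome genes, as log2(RPM + 1) in 28 tumours coloured by group. R108K library 2 is at the upper right of both lysosome panels and not at the far right of the pan-myeloid panel. Without it r with the lysosome genes is 0.228 for Gpnmb and 0.308 for Mitf.

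The genes most like Gpnmb over the 28 tumours were Slc37a2, a sugar phosphate transporter (0.655), Mccc1 (0.651), H2-Q1 (0.651), Mthfd2, a mitochondrial folate enzyme (0.635), H2-K1 (0.630), H2-Q4 (0.628), the thioesterase Ppt2 (0.624), the immunoproteasome subunit Psmb8 (0.622), Apex2 (0.620) and the proteasome assembly factor Pomp (0.620). The H2 genes encode major histocompatibility class I chains and are near copies, among which reads may be shared. Without R108K library 2 these values lay between 0.531 (Ppt2) and 0.676 (Apex2). The most opposed were Vamp4 (-0.716), Tollip (-0.715), Tspan13 (-0.693), Lyrm9 (-0.687) and Gopc (-0.684). Gpnmb and Pmel, relatives in sequence, had r = -0.314, and Gpnmb and Dct -0.100 (permutation p = 0.611).

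Mitf lay between 7.22 and 19.5 RPM in all but 1 of the 28 tumours. A289I tumours had 8.53, 15.4, 16.2, 12.2 and 14.4 RPM, A289V tumours 16.9, 8.45, 19.5 and 7.22 RPM, R108G tumours 10.9, 8.96 and 13.04 RPM and R108K tumours 19.2, 149, 7.47 and 9.05 RPM. R222C tumours had 7.72, 18.6 and 14.1 RPM, T263P tumours 12.8, 17.0 and 11.2 RPM, EGFR wild-type tumours 18.8, 11.6 and 9.74 RPM, mCherry tumours 9.11, 15.7 and 7.29 RPM and cortex 8.08 and 10.04 RPM. All groups overlapped with their neighbours in the order, including mCherry and cortex. No contrast passed with limma, where the lowest unadjusted p was 0.105, nor with edgeR or DESeq2. The lowest adjusted p was 0.0796 in edgeR, from the F-test among the 8 tumour groups, and 0.0592 in DESeq2. The 7 receptor forms differed from mCherry by 0.37 ± 0.48 (limma adjusted p = 0.946, background 0.0379% of tested genes). R108K differed from mCherry by 1.01 ± 0.60 (limma adjusted p = 0.584, background 0.0695% of tested genes), and by 0.0985 without R108K library 2. The 8 tumour groups differed from cortex by 0.49 ± 0.58 (adjusted p = 0.505, background 47.4%) and mCherry from cortex by 0.16 ± 0.72 (adjusted p = 0.882). The F-test among the 8 tumour groups had an adjusted p of 0.857, and 0.0796 in edgeR (background 10.3% of tested genes).

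R108K library 2 held 1922 reads of Mitf, and the next tumour stood at 19.5 RPM. Some genes highest of all tumours there are named here after their values were seen. Of the 5 pigment genes tested 0 were highest there; of the others, Tspan10, Trpm1, Gpr143, Tyrp1 and Mc1r were, all but Tspan10 on 8 to 42 reads. Tspan10 had 55.6 RPM from 716 reads, while the next tumour had 0.896 RPM and cortex no read. The protease Ctsb had 4418 RPM, against 2007 RPM in the next tumour, and the membrane protein Lamp1 1785 RPM, against 995 RPM. Lgals3 had 1119 RPM, against 190 RPM, and the adhesion receptor Cd44 540.02 RPM, against 252 RPM. Dct (6.60 RPM) and Pmel (1.71 RPM) lay inside the range of the other tumours, and Sox10, at 177 RPM, was the lowest of the 28 tumours. Of the 17 OPC genes 3 were lowest and 0 highest there, where 3.91% and 4.13% of all tested genes were. None of the 10 expressed neighbours of Mitf on chromosome 6, nor of the 10 of Gpnmb, was highest in R108K library 2, and their log2 ratios to the median of the other tumours were -0.55 to 0.66 for Mitf and -0.65 to 1.24 for Gpnmb.

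Over the 28 tumours Mitf had r = 0.720 with the pigment genes and 0.708 with the lysosome genes (permutation adjusted p = 0.0185 and 0.0192), and both rested on that library: without it they were 0.373 and 0.308 (adjusted p = 0.283 and 0.401). The rank correlations, 0.425 and 0.396, did not pass (adjusted p = 0.146 and 0.193). Of the lysosome genes 4 of 15 had r above 0.5 with Mitf, against 1.56% of all genes, and 0 of 15 without R108K library 2, against 1.52%. With the OPC genes r was -0.244 (adjusted p = 0.456), and with the pan-myeloid genes 0.188 (adjusted p = 0.583). Mitf had r = 0.176 with Dct (permutation p = 0.354, adjusted p = 0.575), which was 0.293 without R108K library 2 (adjusted p = 0.445) and 0.421, 0.471 and 0.851 in the ranges below 20, 20 to 37 and above 37. It had r = 0.335 with Gpnmb (p = 0.0855, adjusted p = 0.27; -0.0821 without R108K library 2) and -0.362 with Sox10 (p = 0.0629, adjusted p = 0.27; 0.184 without R108K library 2). Dct and Sox10 had r = 0.156 (p = 0.428).

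The genes most like Mitf were the cystatin Cst6 (0.818), Bace2, a protease known to cut Pmel in pigment cells (0.775), Vamp5 (0.771), the proteoglycan Sdc2 (0.758), the ceramide kinase Cerk (0.757), the channel subunit Kcnmb2 (0.752), Gng11 (0.746), the lysosomal hyaluronidase Hyal1 (0.745), Lamp1 (0.719) and Tnfsf12 (0.712). Without R108K library 2 Cst6 (0.663) and Cerk (0.595) were the highest of these, Bace2 was at 0.217 and Kcnmb2 at -0.216. The most opposed were Csmd2 (-0.723), Nlgn3 (-0.721), Zcchc14 (-0.699), Cnnm3 (-0.685) and Mllt1 (-0.672).

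The other MiT/TFE genes were measured as relatives of Mitf. Per kilobase of exon the tumour medians were 7.06 RPM for Tfe3, 3.58 RPM for Tfeb, 2.02 RPM for Mitf and 0.201 RPM for Tfec. Tfeb was higher in A289I tumours than in EGFR wild-type tumours by 1.37 ± 0.30 (limma adjusted p = 0.0487, background 0.335%), with 37.6 ± 8.63 and 13.9 ± 3.27 RPM (SD, n = 5 and 3), whereas Mitf differed by 0.02 and Tfe3 by -0.05. The 2 groups share no range of library numbers, so variant and range cannot be told apart here. EGFR wild-type libraries 1 and 2 were also among the tumours with Met above 1000 RPM, and the part of this was not tested. Gpnmb had r = 0.199 with Tfeb, 0.120 with Tfe3 and 0.135 with Tfec, none of which passed (permutation p = 0.312, 0.543 and 0.495).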

How the data were processed

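RNA sequencing tables of 30 libraries were used. Per the submitters' processing notes, the authors used FastQC, STAR 2.5.0a, DESeq2 1.20.0 and mm10. The deposited values, named RPM, are counts divided by size factors (unit signal). Whole reads were recovered from their steps for all but 1 value, at least 99.9959% of each library within 0.05 of a whole number. Values were divided by 10.3, which sets the mean column sum to 1000000, and called RPM. The 15824 genes with at least 1 RPM in 3 libraries were tested on log2(RPM + 1) with limma 3.58.1 (R 4.3.3, 9 group means, moderated with trend and robust settings, Benjamini-Hochberg within each of 18 contrasts), which needs no count model. Recovered reads were run in edgeR 4.0.16 and DESeq2 1.42.0 as alternatives. Correlations over the 28 tumours used 100000 permutations in Python 3.11.15 with SciPy 1.17.1, exact under 10 tumours and within groups for deviations from group means. Reads carry no molecular identifiers in the labels, so limits on 0 counts (3 reads) cover counting error only. The fits were tested on simulated data.

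The members and lists were chosen with earlier results of these data known. Named genes are the members, the MiT/TFE genes, the pigment list, of each other list the 4 of highest mean RPM and those that passed, and for each member the 10 of highest and 5 of lowest r among 12527 genes whose tumour mean reached 5 RPM, without predicted loci. Of these genes 1 is not reported here. Exceptions are marked where they appear.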

Additional observations from a re-analysis of the deposited data

Results flagged for a closer look

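Within groups of 4 or 5 tumours, 5 values stood far from the others by Dixon's criterion on the gap to the nearest value over the range. They were Dct in A289V library 3 (92.7 RPM, gap over range 0.902), Gpnmb in A289I library 3 (2067 RPM, 0.734), and in R108K library 2 Gpnmb (5448 RPM, 0.928), Mitf (149 RPM, 0.918) and Tspan10 (55.6 RPM, 0.986). The criterion was applied to 15 groups of values in RPM and not in log2(RPM + 1). Chance alone marks about 1 in 20 only where values are normally distributed. Values in RPM with a long upper tail can be marked more often, so the 5 are pointers and not tests.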

How the results depend on the processing

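For Dct with the OPC genes r was 0.407 within groups, 0.413 without the 3 tumours with Met above 1000 RPM, and 0.577, 0.138 and 0.817 in the library number ranges below 20, 20 to 37 and above 37, none passing adjustment. For Dct with the myelin genes r was 0.334 within groups and 0.773, 0.630 and 0.676 in the ranges, none passing. For Dct with the pigment genes r was 0.370 with a pseudocount of 0.1 RPM, 0.374 within groups, 0.539 without the Met-high tumours, 0.168 without Pmel (an alternative chosen after seeing the data) and 0.510, 0.590 and 0.820 in the ranges, none passing. Gpnmb with the pan-myeloid genes was -0.0663 above 37 and 0.564 without the 2 tumours farthest from the median (permutation p = 0.00251, not adjusted). Over its other alternatives, apart from leaving out 1 tumour, the lowest adjusted p was 0.0744. Mitf with the OPC genes was 0.0442 from 20 to 37 and 0.667 above 37, and with the pan-myeloid genes -0.124 from 20 to 37. The Mitf difference between the 8 tumour groups and cortex became -0.10 when the 3 ranges entered the fit. The Gpnmb difference between the 7 receptor forms and mCherry ran from -0.92 to 0.32 with 1 library left out, the last without mCherry library 3. The causes were not tested, and the ranges hold fewer samples.

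Leaving out each tumour in turn, r ranged from 0.507 to 0.643 for Dct with OPC, 0.686 to 0.746 with myelin and 0.492 to 0.705 with pigment genes, from 0.389 to 0.560 for Gpnmb with pan-myeloid genes, and for Mitf from -0.327 to -0.0892 with OPC and 0.0659 to 0.229 with pan-myeloid genes. Dct with OPC genes did not pass without mCherry library 2 (0.507, adjusted p = 0.0543), nor did Dct with pigment genes without A289I library 2 or 3 (0.515 and 0.492) or mCherry library 1, 2 or 3 (0.506, 0.498 and 0.508). Gpnmb with pan-myeloid genes passed without A289I library 3 (0.521, adjusted p = 0.0419) or R108G library 3 (0.560, adjusted p = 0.0161). No paired analysis was possible because the labels give library numbers and no shared replicate numbers. Depth limits Tyr and Tyrp1, where a single read was worth up to 0.383 RPM.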

Other observations

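Outside the lists, and chosen after values were seen, R108K library 2 stood furthest above the next tumour in Odf4 (82.2 RPM, against 0.106 RPM), the channel subunit Kcnmb2 (155 RPM, against 2.56 RPM), Fam110c (39.2 RPM, against 0.959 RPM), Igfbpl1 (267 RPM, against 15.6 RPM) and the protease Bace2 (261 RPM, against 26.4 RPM). Other genes high in that library were the signalling protein Wnt7b (322 RPM, against 60.5 RPM) and Aldh1l1, a folate enzyme used as an astrocyte marker (795 RPM, against 192 RPM). These are values of 1 tumour with no replicate of their own.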
